A study of Mus musculus with 36 samples.

Results

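Chromosome 19 is the smallest mouse autosome, and its replication timing (RT) domains are described here in 3 maps, each of which gives every 20 kb bin 1 of 3 states, early (E), middle (M) or late (L). All domains on the chromosome were taken, which gave 66 domains in shLacZ CH12 cells, 65 in WT primary B cells and 51 in mouse embryonic fibroblasts (MEFs), 182 of the 7437 domains of the 3 maps. They cover 3068 of 131957 bins, a length of 61342430 bp in the mm9 genome, and 724 protein-coding genes have their start there. Chromosome 19 was chosen by the E share of the CH12 and primary B maps, which differed more on it than on any other autosome, so every difference between those 2 maps on it is a description and no test was made of it. The MEF map, the base sequence and the genes had no part in that choice.

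Replication timing is the order in which stretches of a chromosome are copied during S phase. Gene-rich, transcribed chromatin is commonly copied early and gene-poor chromatin close to the nuclear lamina late, and a middle state often joins an early to a late domain. Many domains keep their timing in all cell types, while others switch between E and L as cells differentiate.

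The series measured RT by Repli-seq in 36 libraries of 7 groups, in which dividing cells took up BrdU and the DNA made early and the DNA made late in S phase were sequenced from separately sorted cells. The CH12 map comes from 4 libraries of the mouse B lymphoma line CH12, infected with a lentivirus for an shRNA against LacZ as the control for infection, and the primary B map from 4 libraries of activated splenic B cells of WT mice. For both groups the labels give a medium with IL4, CD40 and TGF beta stimulation, and neither gives an age or a sex. The MEF map is tied to no sample by the labels, and the study lists MEF Repli-seq among earlier public data. The other 5 groups carried a *Rif1* deletion, heterozygous or homozygous, an shRNA against *Mcm6*, or both, and were not analysed here. CH12 is 1 tumour line, and replicates were pooled ahead of state calling, so each condition has 1 map, no value has a replicate error and no test between maps was possible. Wilson 95% intervals, given in parentheses, cover the counting of bins alone, in which neighbours depend on each other. The read depth behind the maps is unknown. States were called in each map separately, so a shift of the whole RT distribution and a move of the limit between states cannot be told apart.

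3 promoters are printed as examples, and they do not stand for all classes of gene described below. *Gcnt1*, which makes branched O-glycans on leukocyte proteins, and *Rfk*, the kinase that turns riboflavin into flavin mononucleotide, start inside 1 of the 2 longest runs of bins, equal in length, with the states L in CH12 cells and E in primary B cells. *Sorcs1*, a sorting receptor of neurons, lies in the longest stretch that was L in all 3 maps. Each sequence runs 5′ to 3′ on the strand of the gene, from 250 bases before to 50 bases from the annotated start, in mm9: chr19:17431108-17431407 on the minus strand for *Gcnt1*, chr19:17468283-17468582 on the plus strand for *Rfk* and chr19:50753053-50753352 on the minus strand for *Sorcs1*. Capitals mark CG, the dinucleotide that is dense in CpG island promoters.
Gcnt1: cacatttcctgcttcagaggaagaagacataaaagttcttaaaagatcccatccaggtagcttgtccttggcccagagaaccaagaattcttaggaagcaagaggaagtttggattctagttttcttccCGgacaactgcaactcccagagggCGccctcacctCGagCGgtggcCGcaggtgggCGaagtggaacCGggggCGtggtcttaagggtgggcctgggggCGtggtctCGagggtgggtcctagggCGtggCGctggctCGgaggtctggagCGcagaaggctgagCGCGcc
Rfk: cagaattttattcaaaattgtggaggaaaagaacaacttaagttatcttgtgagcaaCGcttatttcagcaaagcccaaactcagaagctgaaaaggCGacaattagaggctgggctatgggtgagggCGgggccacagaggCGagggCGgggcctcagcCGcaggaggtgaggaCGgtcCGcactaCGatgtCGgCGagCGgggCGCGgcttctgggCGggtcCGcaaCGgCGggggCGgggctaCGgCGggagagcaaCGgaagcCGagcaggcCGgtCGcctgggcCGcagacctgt
Sorcs1: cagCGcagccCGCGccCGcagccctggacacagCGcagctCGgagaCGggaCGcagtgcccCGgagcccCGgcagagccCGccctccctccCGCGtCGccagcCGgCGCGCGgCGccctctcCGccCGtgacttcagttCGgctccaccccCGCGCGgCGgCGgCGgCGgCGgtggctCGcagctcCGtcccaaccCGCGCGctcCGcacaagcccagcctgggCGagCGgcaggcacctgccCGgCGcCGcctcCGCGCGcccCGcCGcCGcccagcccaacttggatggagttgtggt

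The *Gcnt1* promoter held 16 CG dinucleotides, *Rfk* 26 and *Sorcs1* 47. CG reads the same on both strands. Of all 724 protein-coding promoters of chromosome 19, 57.3% held at least 10 CG in the same window, with a median of 14. The share was 69.2% of the 435 promoters that were E in both B maps, 55.6% of 9 that went from L in CH12 to E in primary B cells, 48.2% of 83 that went from M to E, 47.0% of 100 that were M in both, 29.2% of 65 that went from L to M, and 9.38% of 32 that were L in both. The 26 promoters that were L in all 3 maps had a median of 2 CG, and 17 of them lie in a single stretch of olfactory receptor genes. With 47 CG, *Sorcs1* is thus not typical of these 26.

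The first question was how chromosome 19 divides between the states. In CH12 cells 931 bins were E, 972 M and 1165 L. In primary B cells 1295 bins were E, 1265 M and 508 L, and in MEFs 1283 were E, 1314 M and 471 L. Thus L was the most common state in CH12 cells and the least common in the other 2 maps. As shares of the chromosome, E made up 30.3% (28.7 to 32.0%) in CH12 cells, 42.2% (40.5 to 44.0%) in primary B cells and 41.8% (40.1 to 43.6%) in MEFs. L made up 38.0% (36.3 to 39.7%), 16.6% (15.3 to 17.9%) and 15.4% (14.1 to 16.7%) in the same order. The primary B and MEF shares lay close to each other, while CH12 cells had a lower share of E and a higher share of L. The chromosome was chosen by the E shares of the B maps, and the intervals count dependent neighbouring bins, so they do not test these differences. The first 3 Mb of the chromosome hold only unknown bases, 150 bins that are M in all 3 maps and contain no gene start, so they add to M alone.

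Beside the other 18 autosomes, over all bins with a state in the map, the E share of chromosome 19 held place 3 of the 19 autosomes in CH12 cells. It held place 2 in primary B cells, after chromosome 11 with 51.9%. Over bins with a state in both B maps it held place 4 in CH12 cells, with 30.3% just behind chromosome 9 with 30.4%. Its L share in primary B cells was the lowest of all autosomes, ahead of chromosome 11 with 22.6%. The gain of E from CH12 to primary B cells, on which the chromosome was selected, was 11.9 percentage points against 10.3 on chromosome 3, the next in order, and a lowest value of 1.59 on chromosome 12. With bins nearer than 100 kb to a boundary of either map left out, the gain was 8.12 on chromosome 19 and 8.28 on chromosome 3, so the order of these 2 chromosomes turned. The loss of L was 21.4 percentage points against at most 15.1, on chromosome 13, and remained the largest of the 19 autosomes in that setting, at 17.8 against 10.3. The E gain was thus close to that of chromosome 3, while the L loss was further from the next chromosome. Chromosome 19 is also among the richer autosomes in genes, with 12.5 protein-coding genes per Mb of known sequence, and in GC, with 42.7%, place 3 of the 19 autosomes for both.

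**Figure D1:**
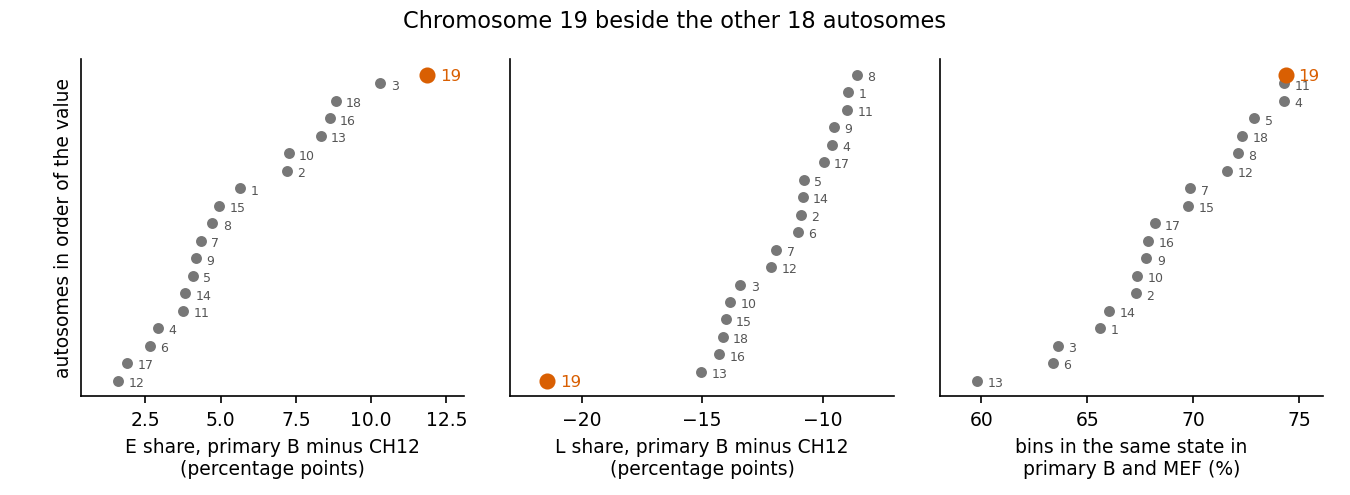
Each point is an autosome, placed by the change of its E share (left) or L share (middle) from CH12 to primary B cells in percentage points, or by the percent of its bins in the same state in primary B cells and MEFs (right), with chromosome 19 in orange. Chromosome 19 lies at 11.9 and -21.4 percentage points, beyond the other 18 autosomes. Its agreement, with bins of unknown bases counted, is 74.4%, next to chromosome 11 at 74.3%.

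The second question was which bins differed between the B maps. In primary B cells 970 bins of chromosome 19, 31.6% (30.0 to 33.3%), were in an earlier state than in CH12 cells, beside 20.3% of bins over all 20 chromosomes. Only 4 bins, 0.130%, were in a later state, beside 3.62% over all chromosomes. Both counts come from the contrast that chose the chromosome. The other autosomes had between 65 and 590 bins in a later state, 1.36 to 6.09% of their bins. The direction on chromosome 19 was therefore nearly one-sided, and the 4 exceptions were 2 bins at chr19:54120001-54160000 and the last, incomplete bin of the chromosome, which went from E to M, and 1 bin at chr19:54520001-54540000, which went from M to L. No protein-coding gene starts in any of the 4.

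By starting state, 928 of 931 E bins of CH12 cells, 99.7% (99.1 to 99.9%), were E in primary B cells too. Of the 972 M bins, 312 were E and 659 M in primary B cells, and 9 of the 312 hold only unknown bases. Of the 1165 L bins, 603 were M, 55 E and 507 L, so that 56.5% left the L state. On the other autosomes 18.5 to 37.5% of CH12 L bins left it. Conversely, 507 of the 508 L bins of primary B cells were L in CH12 cells. The L state of primary B cells was therefore nested within that of CH12 cells, and the E state of CH12 cells within that of primary B cells.

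**Figure D2:**
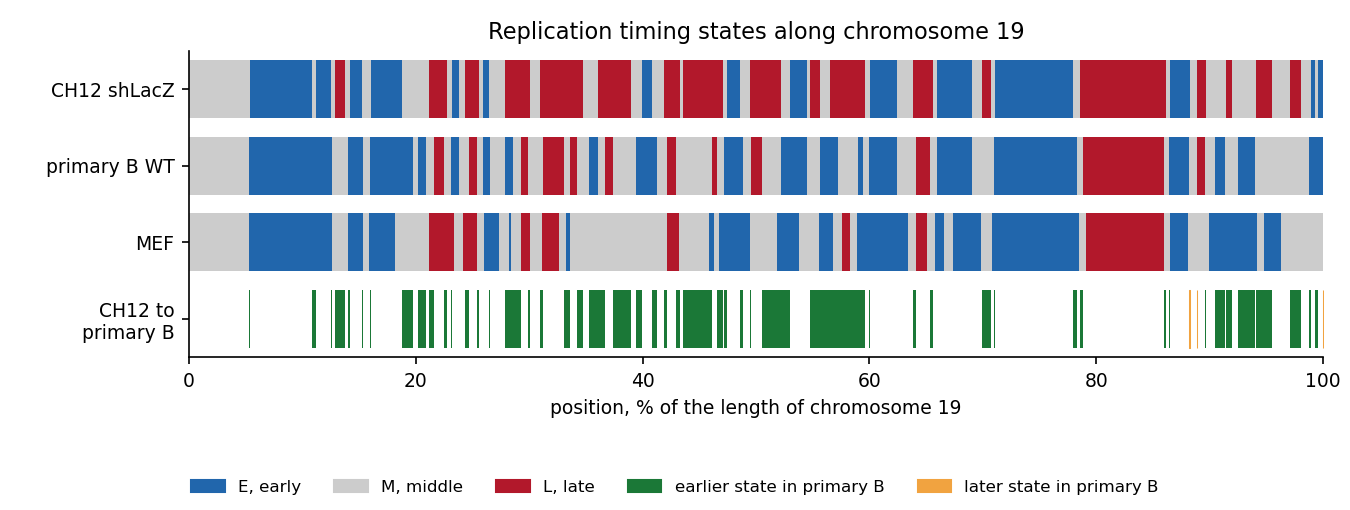
Rows show the state of every domain along chromosome 19 in the 3 maps (blue E, grey M, red L), against position in percent of the chromosome's length, and the lowest row marks bins in an earlier (green) or later (orange, drawn with an outline) state in primary B than in CH12 cells. A large E block and the L block after it, from 71 to 86%, are shared by all maps, green bins fill much of the stretch from 28 to 60%, and orange bins number 4.

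The domains came in an order that the maps shared in part. After the block of unknown bases, each map opened with a long E domain of 3360 kb in CH12 cells, 4500 kb in primary B cells and 4540 kb in MEFs. It has 142 gene starts in CH12 cells, beginning with *Cpt1a*, the enzyme that commits fatty acids to mitochondrial oxidation, and *Lrp5*, a Wnt co-receptor. *Malat1* and *Neat1*, long noncoding RNAs of nuclear speckles and paraspeckles, lie in it and were E in all 3 maps. The maps then changed state often until the longest E domain of CH12 cells, 4260 kb at chr19:43580001-47840000 with 83 gene starts, which begins with *Got1*, an aspartate transaminase, and *Nkx2-3*, a homeobox gene needed for spleen formation. All 213 of its bins were E in all 3 maps. A single M domain separates it from the longest L domain of each map, 4680 kb in CH12 cells, 4380 kb in primary B cells and 4220 kb in MEFs. The part of that block that was L in all 3 maps is 4200 kb long, chr19:48540001-52740000, with 3 gene starts, among them *Sorcs1* and *Ins1*, an insulin gene of the mouse. The longest E and the longest L domain of CH12 cells are thus neighbours in sequence, with a GC content of 46.7% and 39.2%.

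Lengths of L domains differed most between the maps. CH12 cells had 18 L domains with a median of 930 kb (360 to 4680 kb), primary B cells 12 with a median of 460 kb (260 to 4380 kb), and MEFs 8 with a median of 700 kb (420 to 4220 kb). E domains numbered 15, 20 and 17 with medians of 820, 960 and 960 kb. M domains numbered 33, 33 and 26 with medians of 480, 560 and 530 kb. On the other autosomes L domains had medians of 1100 kb in CH12 cells, 940 kb in primary B cells and 960 kb in MEFs. The L domains that remained on chromosome 19 in primary B cells were thus shorter in the median than those elsewhere. The block around *Sorcs1*, 4380 kb, and the domain around *Rorb*, 1140 kb, were longer than the median elsewhere.

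Of the 18 CH12 L domains, 7 held no L bin in primary B cells, 10 kept 1 shorter L piece and 1 kept several pieces. The share without an L bin was 38.9%, place 3 of the 19 autosomes and inside the range of 14.3 to 42.6% on the others. The 7 that lost L were 360 to 1900 kb long with a median of 560 kb, and those that kept 1 piece 460 to 4680 kb with a median of 1220 kb. Of the 15 CH12 E domains, 13 lay wholly inside an E domain of primary B cells. Of the 20 primary B E domains, 7 held no CH12 E bin. The M domains were placed differently too. In CH12 cells 22 lay between an E and an L domain, 7 between L domains and 3 between E domains, whereas in primary B cells 18 lay between E and L, 3 between L domains and 10 between E domains. In MEFs the counts were 12, 2 and 10.

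The 970 bins in an earlier state formed 62 runs of 1 kind of change each. There were 31 runs from L to M with a median of 280 kb, 28 from M to E with a median of 140 kb and 3 from L to E. Of the 62 runs, 44 met an earlier CH12 domain on 1 side, 8 on both sides and 10 on neither, and the last 10 held 28.2% of the bins. On the other autosomes the runs that met no earlier domain held 28.3% of the bins, and those that met 1 held 55.8% against 52.7% on chromosome 19. Earlier states on chromosome 19 therefore lay at domain edges and inside domains in shares near those elsewhere. Runs of at least 300 kb, the span of the smoothing applied by the authors, numbered 25 of the 62.

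The 3 runs from L to E were 420, 420 and 260 kb long. The run at the left, chr19:17120001-17540000, holds *Gcnt1* and *Rfk*, whose promoters are printed above, lies wholly inside a CH12 L domain of 1360 kb, and was M in MEFs at both gene starts. Another, chr19:34680001-35100000, has 6 gene starts, among them *Ifit1*, an interferon-induced antiviral gene, *Slc16a12*, a transporter of the monocarboxylate family, *Pank1*, a pantothenate kinase of coenzyme A synthesis, and *Kif20b*, a mitotic kinesin. The shortest, chr19:36200001-36460000, holds the start of *Pcgf5*, a Polycomb group RING finger gene. All 9 genes that went from L to E lie in these 3 runs.

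The last 2 of these runs belong to the longest unbroken stretch in an earlier state, 2440 kb at chr19:34140001-36580000. It held 12.6% of all bins that differed in this direction, and no such stretch on the other 18 autosomes exceeded 2080 kb. From left to right it is made of an M to E run of 540 kb, the L to E run of 420 kb, an L to M run of 1100 kb, the L to E run of 260 kb and an L to M run of 120 kb. Its M to E run holds *Fas*, the death receptor of lymphocytes, *Ch25h*, which makes the 25-hydroxycholesterol from which B cell guidance cues derive, *Lipa*, the lysosomal acid lipase, *Acta2*, the smooth muscle actin, and *Ifit2* and *Ifit3*. The middle run holds *Htr7*, a serotonin receptor, *Rpp30*, a subunit of RNase P, and *Ankrd1*, an ankyrin repeat gene of muscle. In MEFs 56 bins of the stretch were E, 45 M and 21 L.

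The other long L to M runs were 1580 kb at chr19:26700001-28280000, with *Vldlr*, a receptor for lipoproteins and reelin, *Kcnv2*, a potassium channel subunit, and *Rfx3*, a transcription factor of ciliated cells, and 1020 kb at chr19:30980001-32000000, with *Cstf2t*, *Prkg1*, a cGMP-dependent kinase, and *A1cf*, a cofactor of RNA editing by APOBEC1. A run of 980 kb at chr19:22940001-23920000 holds *Klf9*, a Krüppel-like transcription factor, and *Smc5*, a subunit of the SMC5/6 repair complex. The longest M to E runs were 960 kb at chr19:56720001-57680000, with *Adrb1*, a beta adrenergic receptor, *Tdrd1*, a gene of the germline piRNA pathway, and *Ablim1*, an actin-binding LIM protein, then 580 kb at chr19:11520001-12100000 in the *Ms4a* cluster, and 560 kb at chr19:55500001-56060000 with *Tcf7l2*, a transcription factor of Wnt signalling. The 10 longest of the 56 stretches in an earlier state held 53.4% of the 970 bins.

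Along the chromosome the earlier states were unevenly placed. In windows of 5 Mb, 55.6% of bins between 20 and 25 Mb, 58.0% between 25 and 30 Mb, 59.6% between 30 and 35 Mb and 62.4% between 55 and 60 Mb had an earlier state in primary B cells. In contrast, 1.20% were between 0 and 5 Mb, where most bins have unknown bases or were E, and 4.00% between 50 and 55 Mb. The window from 55 to 60 Mb had no E bin in CH12 cells, 76 of 250 in primary B cells and 174 in MEFs. The window from 50 to 55 Mb, which holds most of the *Sorcs1* block, had 166 L bins in CH12 cells, 158 in primary B cells and 138 in MEFs.

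The third question was how the MEF map stood to the B maps. The comparisons reuse the CH12 and primary B states by which the chromosome was chosen, and are descriptions too. Primary B cells and MEFs had the same state in 74.4% (72.8 to 75.9%) of bins, the highest value of the 19 autosomes, although chromosomes 11 and 4 followed at 74.3%, within the counting interval. That value counts the 150 bins of unknown bases that are M in all 3 maps. Without bins of unknown bases it was 73.0%, below the 74.3% of chromosomes 11 and 4, whose values were not recomputed. On chromosome 11 the primary B map gives a state to 5943 of 6093 bins, and only bins with a state were compared. CH12 cells and MEFs had the same state in 59.1% (57.4 to 60.9%), place 15 of the 19 autosomes. CH12 and primary B cells had the same state in 68.3% (66.6 to 69.9%), which falls under the choice of the chromosome. All 3 maps had the same state in 1620 bins.

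Of the 658 CH12 L bins that left L in primary B cells, 89.1% were also outside L in MEFs, against 26.0% of the 507 that stayed L. On the other autosomes these shares were 69.1 to 91.4% and 25.2 to 47.9%, so chromosome 19 lay inside the range for the first and near its lower end for the second. In the L to M bins, 444 of 603 were M in MEFs, and in the M to E bins 190 of 312 were E in MEFs. Of the 658 bins that left L, 72.0% were M in MEFs, against 50.2 to 76.5% on the other autosomes. The M to E share was 60.9%, against 41.5 to 74.7%, so both lay inside the range elsewhere. In 662 bins primary B cells shared their state with MEFs and not with CH12 cells, in 194 bins CH12 cells shared theirs with MEFs and not with primary B cells, and in 474 bins the B maps shared a state that MEFs lacked. These comparisons share maps with each other and are given side by side, the last counts without a value for the other autosomes.

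**Figure D3:**
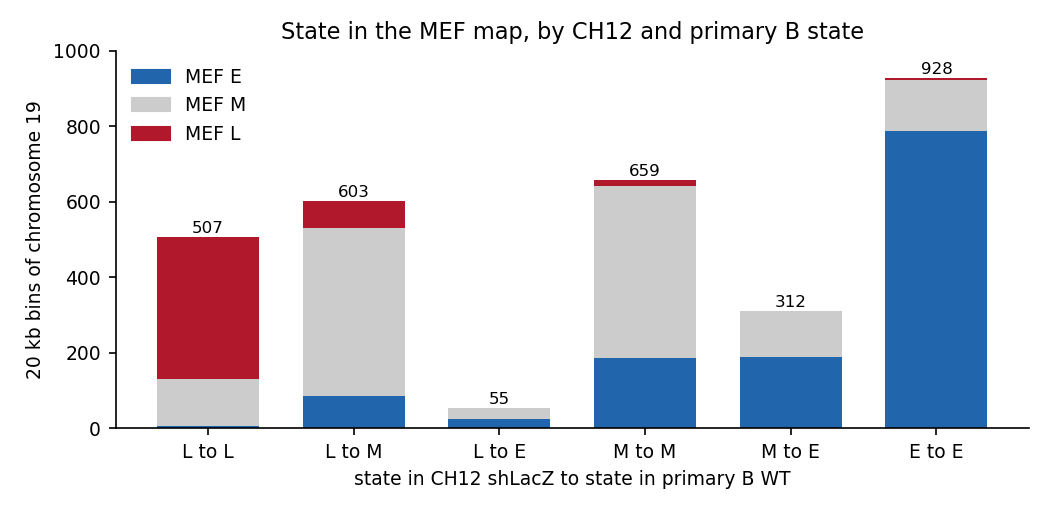
Bars count the 20 kb bins of chromosome 19 by their state in CH12 and then in primary B cells, and colours show the state of the same bins in MEFs (blue E, grey M, red L). Of the 507 bins L in both B maps most were L in MEFs, of the 603 L to M bins 444 were M, and of the 312 M to E bins 190 were E. E to M and M to L, 4 bins together, are not drawn.

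MEFs were in an earlier state than both B maps in 405 bins, 13.2% (12.0 to 14.4%), beside 18.6% over all chromosomes, the lowest share of any autosome. They were in a later state than both in 157 bins, 5.12% (4.39 to 5.95%), beside 4.64%. Where the B maps had 1 common state, 186 bins in 20 runs were M in B cells and E in MEFs, 126 bins in 8 runs L in B cells and M in MEFs, and 133 bins in 10 runs E in B cells and M in MEFs. Full opposites were rare, with 6 bins of 1 run L in both B maps and E in MEFs, and 6 bins of 1 run E in both B maps and L in MEFs. The first, chr19:28280001-28400000, holds the start of the shorter of the annotated entries of *Glis3*, a transcription factor of pancreas and kidney, and the second, chr19:14200001-14320000, holds no gene start.

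The 10 runs that were E in both B maps and M in MEFs have 31 gene starts, of which 3 are on the B cell list, *Ms4a1*, *Blnk* and *Dntt*. That list holds 21 of the 724 protein-coding genes of the chromosome, and an excess in these runs was not tested. The second longest, 460 kb at chr19:40860001-41320000, has 6 gene starts, including *Blnk*, the adaptor that links the B cell receptor to its downstream enzymes, and *Dntt*, the terminal transferase that adds bases at V(D)J joints. The longest, 560 kb at chr19:24500001-25060000, has 7, among them *Pip5k1b*, a lipid kinase, and *Foxd4*, a forkhead gene. The runs that were M in both B maps and E in MEFs were led by 620 kb at chr19:38300001-38920000, with *Lgi1*, a secreted neuronal protein, *Plce1*, a phospholipase of the kidney filter, and *Noc3l*, a factor of ribosome assembly. The longest run L in both B maps and M in MEFs, 580 kb at chr19:30400001-30980000, has a single gene start, that of *Dkk1*, a secreted Wnt inhibitor made by fibroblasts. The longest M domain of MEFs, 5240 kb at chr19:20600001-25840000 with 33 gene starts from *Aldh1a1* on, was cut up in the B maps, where its 262 bins were 28 E, 102 M and 132 L in CH12 cells and 81 E, 141 M and 40 L in primary B cells. These files hold no expression values.

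Of 724 protein-coding genes, 435 started in E in CH12 cells, 527 in primary B cells and 500 in MEFs, or 60.1% (56.5 to 63.6%), 72.8% (69.4 to 75.9%) and 69.1% (65.6 to 72.3%). L held 106, 32 and 49 starts. From CH12 to primary B cells 157 genes, 21.7% (18.8 to 24.8%), were in an earlier state, none in a later state and 567 in the same state. A start that is already E cannot take an earlier state. Of the 289 starts that were M or L in CH12 cells, 54.3% (48.6 to 60.0%) had an earlier state in primary B cells. The share was 45.4% (43.3 to 47.5%) of the 2137 bins that were M or L. Those bins include 159 of unknown bases, 150 of them in the first 3 Mb, where no gene starts, and these lower the bin share. With known bases there were 813 M and 1165 L bins, of which 961 had an earlier state. An excess of gene starts over bins can therefore not be read from these shares. Of the 157 starts, 85 lie at most 100 kb and 151 at most 300 kb from a domain edge in 1 of the B maps. The same distances were not counted over all 724 starts, so no nearness to edges particular to the 157 can be read from this. The share in an earlier state on all other chromosomes together was 18.7% of 21626 genes. A start that was E in all 3 maps was found for 404 genes, on 789 of the 3068 bins.

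Of 21 listed B cell and immune genes of the chromosome, 17 were E in CH12 cells, 19 in primary B cells and 17 in MEFs, and none was L in any map. The 2 with an earlier state in primary B cells were *Fas* and *Ch25h*. *Ms4a1*, which encodes CD20, *Blnk* and *Dntt* were E in both B maps and M in MEFs. *Cd274*, which encodes PD-L1, *Jak2*, a kinase of cytokine receptors, and *Hhex*, a homeobox gene of early B cell development, were E in all 3. *Il33*, an alarmin of stromal cells, was M in both B maps and E in MEFs, and *Lpxn* was M in all 3. Of the 21 listed genes, 17 were E in both B maps, beside 435 of all 724 protein-coding genes. In all 3 maps 14 of the 21 were E, beside 404 of the 724, so most of the listed genes that the B maps shared in E were E in MEFs too.

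Of 20 fibroblast and mesenchymal genes, 9 were E in CH12 cells, 13 in primary B cells and 16 in MEFs, and 5, 2 and 0 were L. From CH12 to primary B cells 7 moved to an earlier state, which were *Anxa1*, *Klf9*, *Kank1*, *Acta2*, *Tcf7l2*, *Ablim1* and *Gfra1*. In MEFs 6 were in an earlier state than in both B maps, among them *Dkk1*, *Aldh1a1*, a retinaldehyde dehydrogenase, *Loxl4*, a collagen cross-linking enzyme, and *Gfra1*, the GDNF co-receptor, and none was in a later state. Over all 724 protein-coding genes of the chromosome, 57 were in an earlier and 35 in a later state in MEFs than in both B maps. *Anxa1*, an annexin, and *Gfra1* had a different state in each map, L in CH12 cells, M in primary B cells and E in MEFs. *Fosl1*, *Efemp2*, *Ltbp3* and *Cd248* lie in the first long E domain and were E in all 3 maps.

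Of 23 genes of replication, repair and chromosome maintenance, 16 were E in CH12 cells, 19 in primary B cells and 19 in MEFs. The 16 were E in all 3 maps and include *Fen1*, the flap endonuclease of Okazaki fragments, *Pola2*, a subunit of DNA polymerase alpha, *Pold4*, a subunit of polymerase delta, *Smc3* of cohesin and *Kif11*, the spindle motor. The 4 with an earlier state in primary B cells were *Kif20b* from L to E, *Smc5* from L to M, and *Ighmbp2*, a helicase, and *Fam111a*, a protease that acts at replication forks, from M to E. *Uhrf2* and *Dclre1a* were M in both B maps and E in MEFs.

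All 20 metabolic genes had the same state in CH12 and primary B cells, 19 of them E in all 3 maps, including the fatty acid desaturases *Scd1* to *Scd4* and *Fads1* to *Fads3*, and *Gpam*, an acyltransferase of triglyceride synthesis, was M in the B maps and E in MEFs. Among 18 developmental regulators 10 were E, 4 M and 4 L in CH12 cells, and 10, 7 and 1 in primary B cells. *Pax2*, *Tlx1*, *Lbx1* and *Pitx3*, transcription factors of embryonic patterning, were E in all 3 maps. *Dmrt2*, *Dmrt3* and *Glis3* had an earlier state in primary B cells, each from L to M. Among the genes that were M or L in CH12 cells and so could take an earlier state, 0 of 1 metabolic, 3 of 8 developmental, 2 of 4 B cell and immune, 4 of 7 replication and repair and 7 of 11 fibroblast genes did so, beside 157 of 289 over the chromosome.

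**Figure D4:**
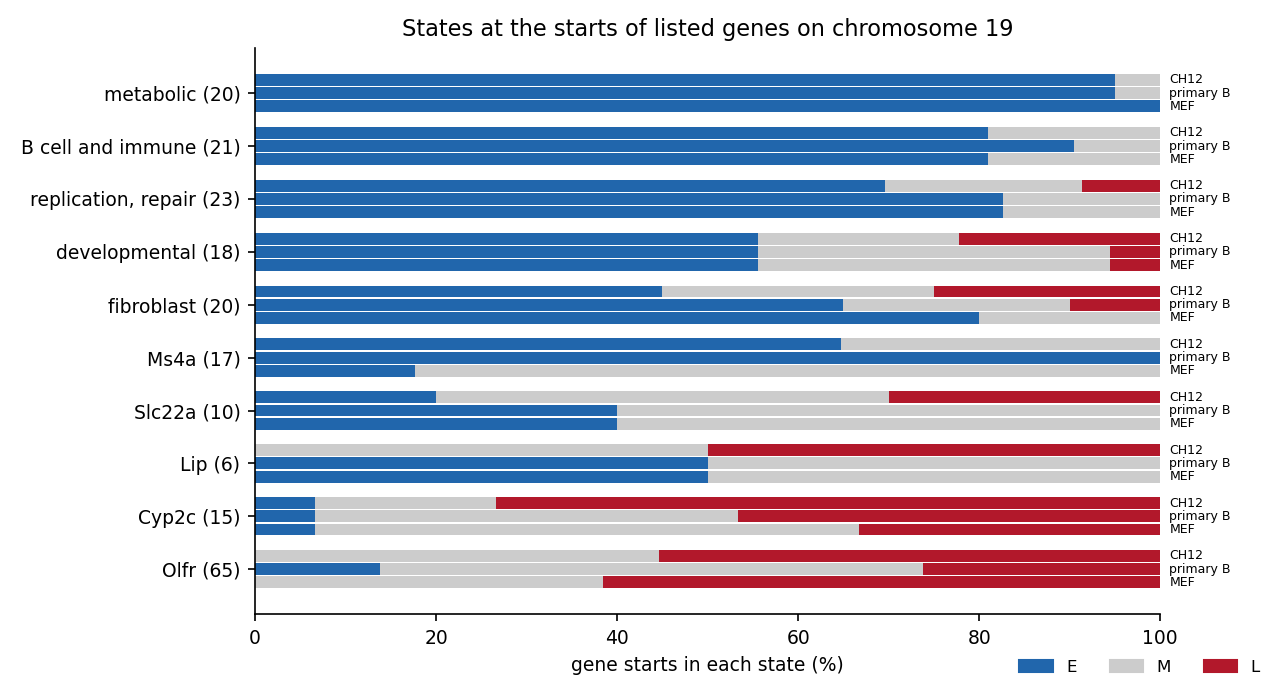
Bars give the percent of gene starts in E (blue), M (grey) and L (red) in CH12 cells, primary B cells and MEFs, with the number of genes of each list or family on chromosome 19 in parentheses. Metabolic genes were E nearly throughout, 17 of 17 *Ms4a* genes were E in primary B cells but 3 in MEFs, and *Olfr* genes had no E start in CH12 cells or MEFs.

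Gene families that lie in clusters are given by the counts of their members. The *Ms4a* family, membrane proteins of leukocytes that include CD20, has 17 genes between 11.0 and 11.7 Mb, of which 11 were E and 6 M in CH12 cells, all 17 E in primary B cells, and 3 E and 14 M in MEFs. The 6 lie at the edge where a CH12 E domain of 1700 kb ends and that of primary B cells reaches 2320 kb. Of 65 olfactory receptor genes, *Olfr*, 29 were M and 36 L in CH12 cells, 9 E, 39 M and 17 L in primary B cells, and 25 M and 40 L in MEFs. The *Olfr* cluster thus differed between primary B cells and MEFs, with 28 genes in an earlier state in primary B than in CH12 cells. All 6 listed genes of the acid lipase family, *Lipa*, *Lipf*, *Lipk*, *Lipm*, *Lipn* and *Lipo1*, and all 3 *Ifit* genes, *Ifit1*, *Ifit2* and *Ifit3*, had an earlier state in primary B cells, and they are neighbours of *Fas* and *Acta2*. Of 15 *Cyp2c* genes, drug-metabolizing enzymes of the liver, 11 were L in CH12 cells, 7 in primary B cells and 5 in MEFs. Of 10 *Slc22a* genes, organic ion transporters of kidney and liver, 5 had an earlier state in primary B cells. Among starts that were M or L in CH12 cells, 157 of 289 over the chromosome had an earlier state in primary B cells. Beside that share stood 28 of 65 *Olfr*, 5 of 8 *Slc22a* and 4 of 14 *Cyp2c* genes. For *Ms4a*, the lipases and *Ifit* it was 6 of 6, 6 of 6 and 3 of 3, each a group of neighbours. Such families were found by symbol, their copies are alike in sequence, and the reads were filtered for unique alignments, whose effect on the states there was not tested.

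The last question was what the bins of each class share in sequence, which had no part in the choice of the chromosome. Median GC content went up from 39.0% in bins L in both B maps to 40.7% in L to M, 42.2% in L to E, 42.3% in M to M, 43.4% in M to E and 45.5% in E to E bins, over bins of known sequence. Gene starts per Mb went from 3.16 to 5.39, 8.18, 9.82, 13.7 and 23.4 in the same order. The quartiles of neighbouring classes overlapped, for example 37.7 to 40.3% in L to L and 39.1 to 42.7% in L to M bins. CH12 L bins that left L had a median GC 1.96 percentage points above those that stayed, against 1.02 to 3.79 on the other autosomes, and 5.62 gene starts per Mb, against 2.96 to 11.3. Bins that left L on chromosome 19 thus had a base composition and gene density within the range of such bins elsewhere.

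**Figure D5:**
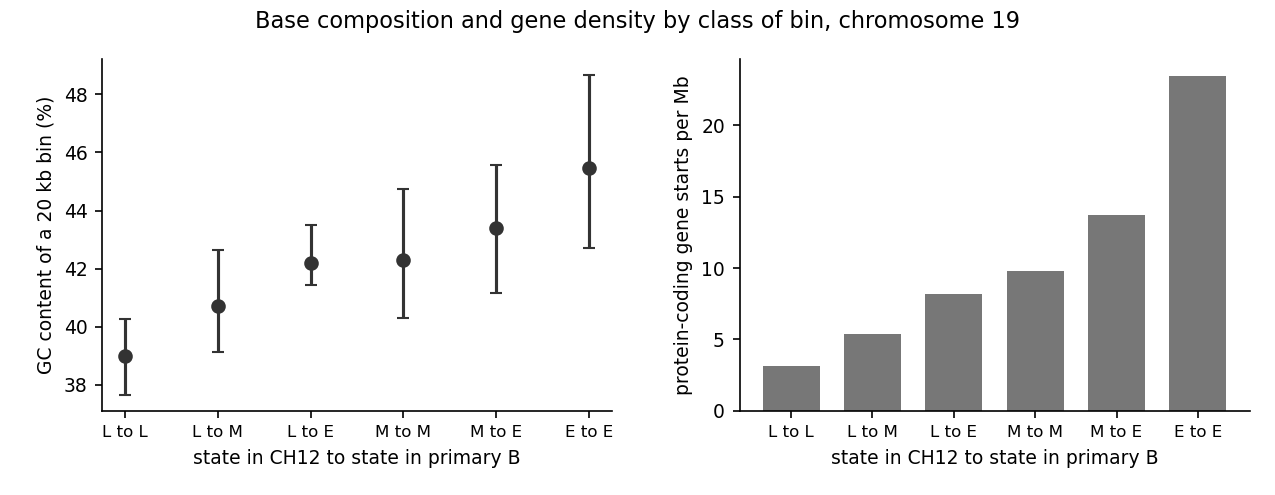
Left, median GC content of 20 kb bins in percent with bars from the lower to the upper quartile, and right, protein-coding gene starts per Mb, by the state of a bin in CH12 and then in primary B cells. Both go up from bins L in both maps (39.0% and 3.16 per Mb) to bins E in both (45.5% and 23.4 per Mb), and the GC quartiles of neighbouring classes overlap.

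Bins with the same state in all 3 maps show the outer ends of this order. The 789 bins E in all 3 lay in 12 stretches, with a median GC of 46.1% and 25.6 gene starts per Mb, and the 375 bins L in all 3 in 7 stretches, with 38.7% and 3.47 per Mb. The longest after those named above were E at chr19:36840001-38300000, 1460 kb with *Hhex*, *Kif11* and *Ide*, the insulin-degrading enzyme, and L at chr19:19160001-20020000, 860 kb with *Rorb*, a nuclear receptor of retina and cortex, as its only gene start. Excluding the unknown bases, the 306 bins M in all 3 had a median of 41.6%, between the other classes. The 133 bins E in both B maps and M in MEFs had 42.1% and the 789 that were E in MEFs too 46.1%, so the E bins that MEFs did not share were lower in GC.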

How the data were processed

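Per the submitters' processing notes and the methods, reads were trimmed with Trim Galore 0.6.5, aligned to mm9 with BWA 0.7.17 and filtered for unique alignments with SAMtools 1.9, and replicates were merged and duplicates removed. The authors then computed log2 early over late reads per 20 kb window with deepTools, smoothed it by loess over 300 kb and segmented it into 3 states with a hidden Markov model. The deposited domain maps hold a state number for each domain and no ratio, so merging removes the replicate spread and smoothing blurs edges.

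States were named E, M and L by number, 2, 1 and 0 in the B cell maps and 0, 2 and 1 in the MEF map. Over all chromosomes the E state had 18.9, 17.6 and 16.1 protein-coding gene starts per Mb in CH12 cells, primary B cells and MEFs, and L 3.76, 2.88 and 3.29. The last domain of every chromosome ended at its length in the NCBIM37 reference, which is mm9. Domains were expanded to 20 kb bins, and a gene (GENCODE M1) was placed by its start. Where the annotation gave a listed symbol more than once, the longest entry was used. A run is an unbroken series of bins with 1 kind of difference.

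Shares carry Wilson 95% intervals, and no test was made, with 1 map per condition. Members and gene lists were chosen with earlier results of these data known. Named regions are the longest domains and shared stretches and the longest runs of each kind, with up to 8 gene starts each, and named genes are those of the lists, families by symbol, and genes of at least 300 kb. A few items named by it are not reported here. The alternatives tried left out bins of unknown bases, the first 3 Mb, bins within 100 kb of a boundary, domains under 100 kb or runs under 300 kb, joined domains or runs across up to 40 kb, and counted base pairs, all genes or gene midpoints. A simulated copy of the CH12 map of 3068 bins with 40 planted runs, the CH12 map itself and small made-up cases were used to test the scripts. All 13 of 13 checks returned the known values. The planted runs lay inside single domains, so runs that meet a domain edge were not tried. Software was Python 3.11.15 with pandas 2.3.3, numpy 2.4.6, matplotlib 3.10.9 and scipy 1.17.1.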

Additional observations from a re-analysis of the deposited data

How the results depend on the processing

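No paired analysis was possible because each condition has 1 merged map and no result comes from a test. Of 108 values recomputed under the alternatives, 82 lay within the counting interval of the value given, or within 1.5 times of a count or a length, and 26 moved. A change of direction was looked for only in the differences of state shares between CH12 and primary B cells, and 0 of those changed direction. The turned order of chromosomes 19 and 3 for the gain of E is counted among the values that moved. The first 3 Mb hold unknown bases called M, and without bins of unknown bases the shares of E and M were 32.0% and 27.9% in CH12 cells, 44.2% and 38.3% in primary B cells and 43.8% and 40.0% in MEFs, and L in CH12 cells was 40.0%. Without the first 3 Mb, CH12 cells had 28.2% M and 39.9% L, primary B cells 44.4% E and 38.2% M, and MEFs 44.0% E and 39.9% M. Agreement of CH12 cells and MEFs was 57.2% without bins of unknown bases. Dropping bins nearer than 100 kb to a boundary of either map kept 2056 bins for the B maps. The E share then differed by 8.12 and the L share by -17.8 percentage points, chromosome 19 held place 2 for the gain of E, 24.7% of bins were in an earlier and 0% in a later state, and agreement was 75.3% for CH12 and primary B cells, 82.2% for primary B cells and MEFs and 66.9% for CH12 cells and MEFs. By construction this removes bins at edges that differ between maps. Of runs of at least 300 kb, 25 were in an earlier and 0 in a later state in primary B than in CH12 cells, and 10 were in an earlier and 4 in a later state in MEFs than in both B maps. Values that rest on few bins, such as the 4 later bins, are below the resolution of the smoothing, and the files give no read depth to judge them by.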

Other observations

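Chromosome 19 has 9 protein-coding genes of at least 300 kb, and the states along their bodies add to what their starts show. *Sorcs1* was L over its whole length in all 3 maps. *Trpm3*, a cation channel of 851 kb, and *Prkg1*, 1196 kb long, were L throughout in CH12 cells and held both M and L in primary B cells, while in MEFs *Trpm3* was M throughout and *Prkg1* M and E. *Pcsk5*, a proprotein convertase, was L throughout in CH12 cells, M at its start and E at its far end in primary B cells, and M in MEFs. *Sorcs3* was L in CH12 cells and M at its start in primary B cells and MEFs, with L further on in both. *Hpse2*, a heparanase relative, and *Atrnl1* held M and L in CH12 cells and M alone in primary B cells, and started in E in MEFs. *Vti1a*, a SNARE protein of the Golgi, was M in CH12 cells, M and E in primary B cells and E in MEFs. A long gene on this chromosome was therefore often split between states in at least 1 map.

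Smaller families gave few members each. Both *Aldh3b* genes were E in all 3 maps. Of the 2 *Trpm* genes and of the 2 *Sorcs* genes, 1 each was in an earlier state in primary B than in CH12 cells, and of the 2 *Vps* genes none was.

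Over the 19 autosomes, the gain of E share had a Pearson correlation of -0.14 and a Spearman correlation of -0.25 with gene density, and of -0.36 and -0.33 with GC content. Without chromosome 19 they were -0.37 and -0.42 with gene density, and -0.56 and -0.51 with GC content. The change of L share had correlations of 0.61 and 0.53 with chromosome length, and of 0.41 and 0.44 without chromosome 19. These points share 1 pair of maps and are given as a description.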
